A study of Mus musculus with 16 samples.

Results

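The 37 genes of the mouse mitochondrial genome were followed in RNA-seq of quadriceps muscle from wild type mice and from mice without *Mtm1*, the gene for a phosphoinositide phosphatase that is lost in myotubular myopathy. They were taken from the count table by symbol, as every gene whose symbol starts with mt-, and make up 37 of its 41388 genes. They comprise 13 mRNAs, 2 ribosomal RNAs and 22 transfer RNAs. All mice were C57BL/6 and were collected at postnatal day 36, in 4 groups of 4 libraries: untreated wild type (WT), wild type given tamoxifen (WT + TAM), untreated *Mtm1* KO, and *Mtm1* KO given tamoxifen (*Mtm1* KO + TAM). The KO allele lacks exon 4 of *Mtm1*, and tamoxifen citrate was fed at 40 mg/kg per day from day 21. The comparisons address what loss of *Mtm1* does to quadriceps RNA and what tamoxifen, a modulator of the estrogen receptor, does in each genotype. Replicates are separate libraries of a group, and the study's methods state that each stands for a separate mouse.

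The mitochondrial genome is a small circle present in many copies per cell, and skeletal muscle uses it heavily. Both of its strands are transcribed as long precursors that are cut at the transfer RNAs, which frees ribosomal RNAs for the mitochondrial ribosome and mRNAs for core subunits of respiratory complexes I, III, IV and V. All other proteins of these complexes, and the machinery that copies, transcribes and processes the mitochondrial genome, are encoded in the nucleus. The nuclear genome also holds old insertions of mitochondrial DNA, and a short read from a mitochondrial RNA can match such a copy as well as it matches its source.

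For that reason the genes were read in 2 sets. The 8 genes with a mean of 1000 CPM (counts scaled to library size) or more over the 16 libraries were *mt-Rnr1*, *mt-Rnr2*, *mt-Nd1*, *mt-Nd2*, *mt-Co1*, *mt-Nd4*, *mt-Nd5* and *mt-Cytb*. The other 29 were 7 mRNAs (*mt-Co2*, *mt-Co3*, *mt-Atp6*, *mt-Atp8*, *mt-Nd3*, *mt-Nd4l* and *mt-Nd6*) and the 22 transfer RNAs. The lowest of the first set, *mt-Rnr1*, had a mean of 1726 CPM and the highest of the second set, *mt-Nd6*, had 265.9 CPM.

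Sequences from the GENCODE vM21 annotation of GRCm38 are printed for stretches where a mitochondrial RNA and its nuclear copy are identical or nearly so. The following 60 bases of *mt-Co2*, the gene of cytochrome c oxidase subunit 2, are at chrM:7478-7537 on the plus strand. *Gm28661* on chromosome 1 has the same letters, and *Gm13341* on chromosome 2 differs at the 6 capitals.

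mt-Co2: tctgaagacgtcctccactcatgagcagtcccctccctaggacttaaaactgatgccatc
Gm28661: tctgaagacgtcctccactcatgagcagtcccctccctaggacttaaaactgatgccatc
Gm13341: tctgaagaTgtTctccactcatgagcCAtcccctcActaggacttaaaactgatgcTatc

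In *mt-Co1*, the gene of cytochrome c oxidase subunit 1, the 45 bases at chrM:6390-6434 differ from each of 2 copies at a single capital letter, *Gm29216* on chromosome 1 and *Gm13340* on chromosome 2. The 2 copies are less alike outside this stretch. *Gm13340* aligns to all 1545 bases of the gene with 37 mismatches, and *Gm29216* covers only a part of it.

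mt-Co1: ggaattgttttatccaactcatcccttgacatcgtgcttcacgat
Gm29216: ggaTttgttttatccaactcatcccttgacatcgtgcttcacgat
Gm13340: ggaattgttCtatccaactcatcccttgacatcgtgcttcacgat

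The copy of *mt-Nd4*, a complex I subunit gene, stops inside the gene. In the 60 bases at chrM:11013-11072 below, capitals mark the last 30 bases that *Gm28439* on chromosome 1 shares, and the lower-case bases lie past the annotated end of that copy.

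mt-Nd4: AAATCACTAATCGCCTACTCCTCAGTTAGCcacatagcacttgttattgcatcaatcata

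The complex V genes *mt-Atp8* and *mt-Atp6* overlap by 43 bases, printed here for chrM:7927-7969 with the start codon of *mt-Atp6* in capitals, so reads in this stretch belong to both genes.

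mt-Atp8 and mt-Atp6 overlap: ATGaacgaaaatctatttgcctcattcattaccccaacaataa

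Every 50-base stretch of the 37 genes was looked up, on both strands, in 141730 annotated nuclear transcripts. For *mt-Co2*, 100% of the stretches were found unchanged in a nuclear transcript, and the share was 99.9% for *mt-Co3*, 99.5% for *mt-Atp6*, 98.8% for *mt-Nd4l* and 98.0% for *mt-Nd3*. On chrM these 5 genes follow each other with no mRNA between them but *mt-Atp8*, and they were all in the set under 1000 CPM. The share was 62.2% for *mt-Nd4*, 51.1% for *mt-Co1*, 8.19% for *mt-Nd2*, 7.61% for *mt-Nd5* and 1.04% for *mt-Rnr2*. It was 0% for *mt-Rnr1*, *mt-Nd1*, *mt-Cytb*, *mt-Nd6* and *mt-Atp8*.

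The stretches came from 15 nuclear genes, 7 of them side by side on chromosome 1 between bases 24611535 and 24616197 and 3 on chromosome 2 between bases 22587291 and 22590533. Of the 15, 14 were in the count table. Aligned end to end, *Gm28661* matched 681 bases of *mt-Co2*, *Gm10925* matched 678 bases of *mt-Atp6* and *Gm28437* matched 783 bases of *mt-Co3*, each with 0 mismatches. *Gm28438* matched 345 bases of *mt-Nd3* with 1 mismatch, T3C, where the mitochondrial base is first and positions count from the first base of the gene. *mt-Atp8* is itself not annotated among the chromosome 1 copies, but *Gm10925* and *Gm28661* lie 233 bases apart there against 230 bases between *mt-Co2* and *mt-Atp6* on chrM. The 161 bases of *mt-Atp8* outside the overlap fall in that interval. The sequence between annotated copies was not used here.

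**Figure D1:**
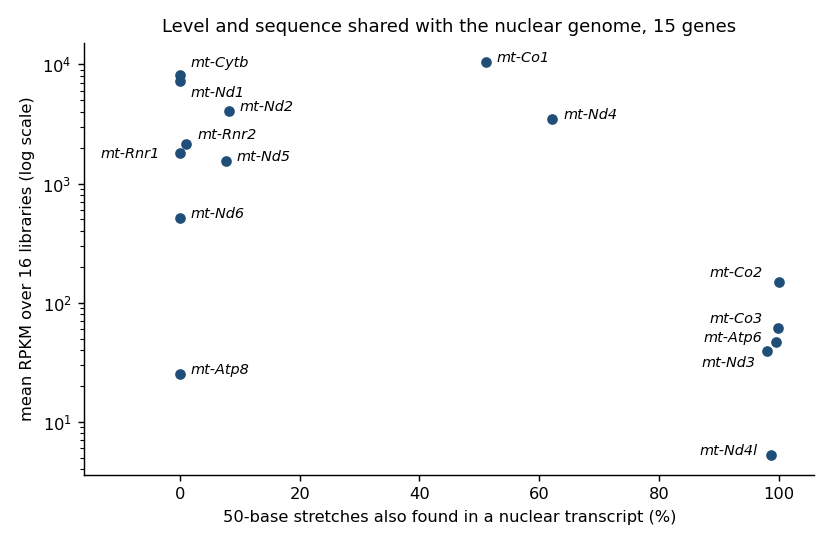
Share of the 50-base stretches of each mitochondrial mRNA and rRNA gene found unchanged in an annotated nuclear transcript (x axis, percent) against its mean level over 16 libraries (y axis, RPKM, log scale). Genes near 100% lie low, from 5.26 RPKM for *mt-Nd4l* to 148 RPKM for *mt-Co2*, and *mt-Atp8* lies low at 0%.

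Sequencing depth was 25116179 to 29847222 counts per library. *Mtm1* itself had 341 to 369 counts in WT replicates 2 to 4, 282 to 459 counts in WT + TAM, 63 to 85 counts in *Mtm1* KO and 53 to 97 counts in *Mtm1* KO + TAM. The library labelled WT replicate 1 had 74 *Mtm1* counts, inside the KO range, which goes against its label. That library and *Mtm1* KO replicate 12 were left out of the comparisons by the study and are left out of the main values here, so n was 3 in each untreated group and 4 in each tamoxifen group unless stated. The 8 skeletal muscle markers summed to 151229 to 189675 CPM in WT and 156868 to 163964 CPM in WT + TAM. They summed to 113098 to 125345 CPM in *Mtm1* KO and 100333 to 131688 CPM in *Mtm1* KO + TAM, below both wild type groups without overlap. The 7 slow fiber markers summed to 78.0 to 693 CPM in WT, 77.6 to 368 CPM in WT + TAM, 492 to 1623 CPM in *Mtm1* KO and 362 to 1090 CPM in *Mtm1* KO + TAM. The 5 leukocyte markers found summed to 27.7 to 41.8 CPM in WT and 17.5 to 36.3 CPM in WT + TAM, against 55.5 to 90.5 CPM in *Mtm1* KO and 49.1 to 96.5 CPM in *Mtm1* KO + TAM. The 4 cardiac muscle markers summed to 6.09 to 6.95 CPM in WT and 6.22 to 10.9 CPM in WT + TAM, against 20.6 to 26.3 CPM in *Mtm1* KO and 23.98 to 41.9 CPM in *Mtm1* KO + TAM. No gene of these lists was at 0 in every library. The part of these shifts in the values below was not tested. In bulk tissue, fewer cells of a type and less of an RNA per cell cannot be told apart.

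Levels between genes are given per length, as the deposited read counts scaled to gene length and library size (RPKM). The full gene length was used, also for *mt-Nd4* and *mt-Co1*, where 62.2% and 51.1% of the stretches are shared with nuclear transcripts. The RPKM of such genes, and so their rank, may not follow the level of their RNA. *mt-Co1* was the most abundant member with a mean of 10400 RPKM and a range of 4108 to 16524 over 16 libraries. *mt-Cytb*, the only complex III subunit of this genome, followed with 8194 RPKM and *mt-Nd1*, a complex I subunit gene, with 7219 RPKM. *mt-Nd2* and *mt-Nd4*, also of complex I, had 4087 and 3467 RPKM. The rRNAs had 2130 RPKM for *mt-Rnr2*, of the large ribosomal subunit, and 1807 RPKM for *mt-Rnr1*, of the small one, and *mt-Nd5* of complex I had 1545 RPKM.

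Down to *mt-Nd2* this order held in each of the 14 main libraries. Among the abundant genes, neighbours that changed places were *mt-Nd2* and *mt-Nd4*, in order in 11 of 14 libraries, and *mt-Rnr1* and *mt-Nd5*, in order in 8 of 14. *mt-Co1* took 32.3% of all mitochondrial counts, *mt-Cytb* 18.8% and *mt-Nd1* 13.9%.

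Below these came *mt-Nd6*, the only mRNA encoded on the minus strand, with a mean of 512 RPKM. The other 6 mRNAs of the lower set had 148 RPKM for *mt-Co2*, 60.8 for *mt-Co3*, 46.5 for *mt-Atp6*, 39.3 for *mt-Nd3*, 25.3 for *mt-Atp8* and 5.26 for *mt-Nd4l*. *mt-Co2* and *mt-Co1* encode subunits of the same complex, but *mt-Co2* had 0.266% to 3.08% of the counts of *mt-Co1* in the 16 libraries. In the same libraries its copy *Gm28661* kept close to it, with 1.47 to 1.86 counts on *mt-Co2* for each count on *Gm28661*.

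Of the 22 transfer RNAs, which bring amino acids to the mitochondrial ribosome, 11 had 0 counts in all 16 libraries and 11 had at least 1 count. Those of the minus strand had a count in 7 of 8 cases and those of the plus strand in 4 of 14, and the minus strand took 78.6% of all transfer RNA counts. The highest was *mt-Tp*, the proline transfer RNA of the minus strand, with 113 to 574 counts per library. *mt-Tq*, for glutamine, had 39 to 242 counts and *mt-Tw*, for tryptophan, had 49 to 170. At most 7 transfer RNAs had enough counts to be tested in a comparison, and edgeR's quasi-likelihood test called 0 of them in any, with *mt-Tp* alone at an unadjusted p under 0.05, in 2 comparisons given below. DESeq2 and the exact test called 0 as well. Whether the counting used strand is not given in the sources used here.

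**Figure D2:**
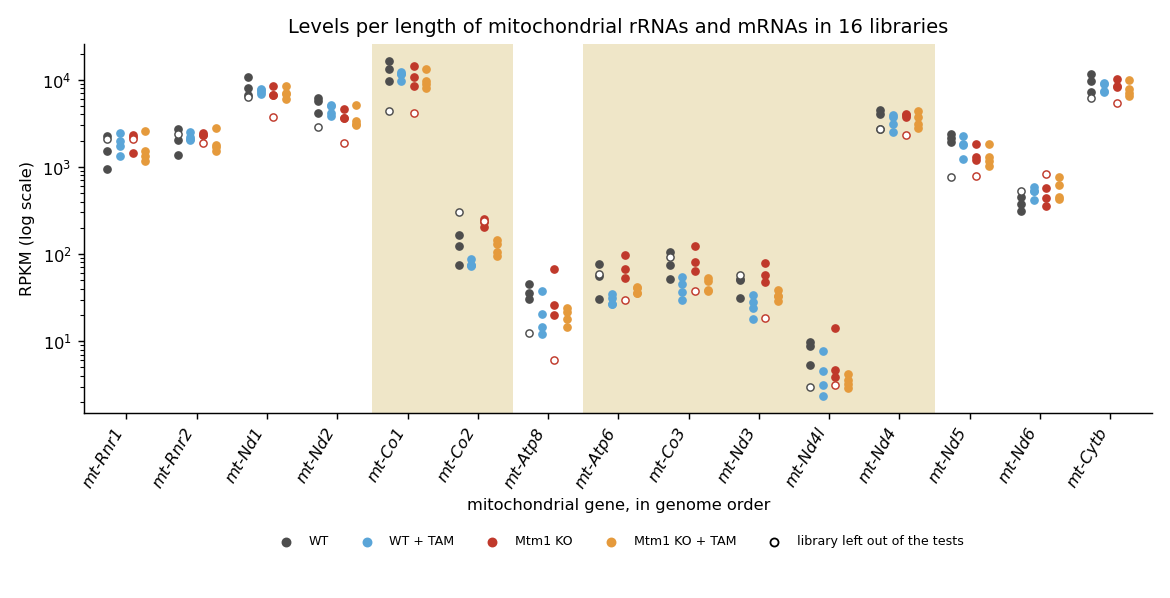
Level of each mitochondrial mRNA and rRNA gene (RPKM, log scale) in every library, coloured by group. *mt-Co1*, *mt-Cytb* and *mt-Nd1* are highest, at means of 10400, 8194 and 7219 RPKM, and *mt-Nd4l* is lowest at 5.26 RPKM.

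All 37 genes together took 4.42%, 5.96% and 7.30% of the counts in the 3 WT libraries and 4.57% to 5.65% in WT + TAM. They took 4.67%, 5.09% and 6.10% in *Mtm1* KO and 3.91%, 4.36%, 4.46% and 6.24% in *Mtm1* KO + TAM. The 4 groups overlapped. WT had a mean of 5.89% ± 1.44 (SD, n = 3) and *Mtm1* KO one of 5.29% ± 0.733 (SD, n = 3). With tamoxifen these were 5.21% ± 0.507 (SD, n = 4) for wild type and 4.74% ± 1.03 (SD, n = 4) for KO mice. The libraries left out had the lowest shares of all 16, 3.45% in the library labelled WT replicate 1 and 2.85% in *Mtm1* KO replicate 12.

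The share depends on what else is in a library. The 10 most abundant nuclear genes took 22.3% to 27.6% of the counts in WT and 23.5% to 25.2% in WT + TAM, but 15.6% to 18.2% in *Mtm1* KO and 14.6% to 18.9% in *Mtm1* KO + TAM. With them removed from the denominator the mitochondrial share was 7.77% ± 1.64 in WT, 6.86% ± 0.625 in WT + TAM, 6.35% ± 0.815 in *Mtm1* KO and 5.70% ± 1.28 in *Mtm1* KO + TAM (SD, same n), and the groups again overlapped.

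Within the mitochondrial counts, the rRNAs took 6.91% to 8.87% in WT, 9.13% to 11.2% in WT + TAM, 8.22% to 12.8% in *Mtm1* KO and 8.10% to 11.001% in *Mtm1* KO + TAM. The WT range lay below that of WT + TAM without overlap. The libraries left out stood apart here as well, with 16.7% rRNA in WT replicate 1 and 17.5% in *Mtm1* KO replicate 12, and 19.7% and 22.3% of their mitochondrial counts on *mt-Co1* against 28.2% to 36.2% in the other 14. The 6 low mRNAs other than *mt-Nd6* took 0.540% to 0.599% of mitochondrial counts in *Mtm1* KO, above WT at 0.296% to 0.381%, WT + TAM at 0.196% to 0.273% and *Mtm1* KO + TAM at 0.286% to 0.406%, and *Mtm1* KO did not overlap with any other group. With the left-out libraries, at 0.998% in WT replicate 1 and 0.770% in *Mtm1* KO replicate 12, the WT and *Mtm1* KO ranges overlapped. This counts WT replicate 1 under its label, which its *Mtm1* counts go against.

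**Figure D3:**
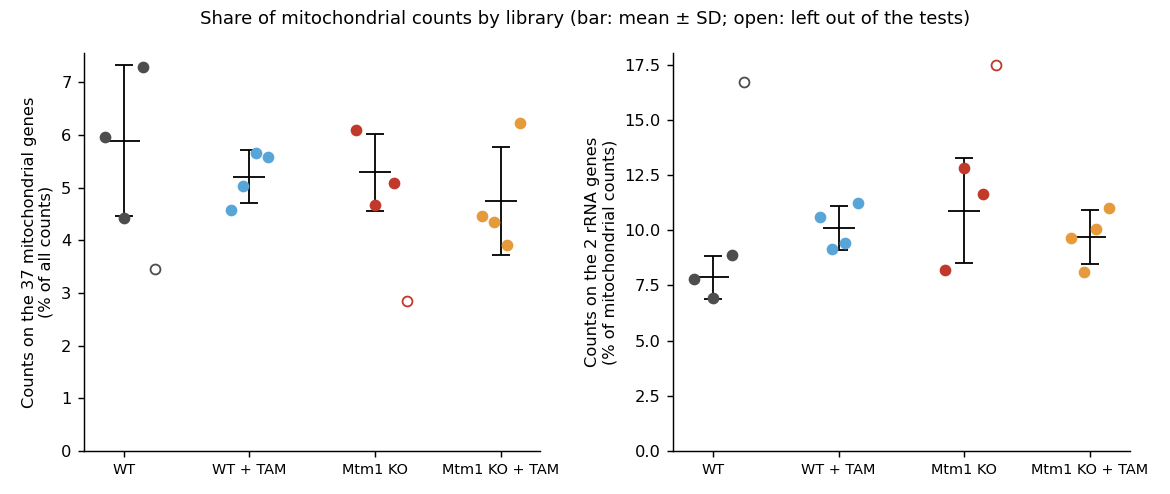
Share of each library's counts on the 37 mitochondrial genes, and the make-up of those counts, by library and group. Shares run from 3.91% to 7.30% in the 14 main libraries with all groups overlapping, and the libraries left out lie at 3.45% and 2.85%.

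Loss of *Mtm1* without treatment went with lower values of the complex I mRNAs *mt-Nd5* and *mt-Nd2*, which did not pass the threshold. The share of members called was no higher than that of all genes by edgeR's quasi-likelihood test, DESeq2 or the exact test. Values are normalized CPM, counts relative to a library size scaled by the trimmed mean of M-values (TMM), a scaling that sets aside the genes that differ most. *mt-Nd5*, at chrM:11742-13565, had 4063, 4104 and 4673 normalized CPM in WT and 2828, 1853 and 2152 in *Mtm1* KO. All 3 KO libraries were below all 3 WT libraries. The log2 difference was -0.89 ± 0.19 (SE) with an adjusted p of 0.0191 (edgeR, quasi-likelihood, Benjamini-Hochberg over all genes), against a threshold of 0.01. *mt-Nd2*, at chrM:3914-4951, had 6133, 4981 and 6869 normalized CPM in WT and 4053, 3254 and 3369 in *Mtm1* KO, again without overlap, with a log2 difference of -0.73 ± 0.18 and an adjusted p of 0.0324.

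In *Mtm1* KO against WT 22 of the 37 genes had enough counts to be tested, and edgeR's quasi-likelihood test called 0 of them, where it called 3.60% of all 14740 genes tested. At an unadjusted p under 0.05 there were 4 members (30.1% of all genes), *mt-Nd5*, *mt-Nd2* and *mt-Nd1* below WT and *mt-Co2* above it. DESeq2 and edgeR's exact test each called 2 members, *mt-Nd2* and *mt-Nd5*, with backgrounds of 11.4% and 9.82%. Of the 8 abundant members 3, *mt-Nd1*, *mt-Nd2* and *mt-Nd5*, were lower without overlap, as were 19.0% of all genes.

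The other abundant members gave log2 differences of -0.54 ± 0.21 for *mt-Nd1*, -0.53 ± 0.25 for *mt-Co1*, -0.37 ± 0.20 for *mt-Cytb*, -0.24 ± 0.19 for *mt-Nd4*, -0.08 ± 0.22 for *mt-Rnr2* and 0.04 ± 0.30 for *mt-Rnr1*. *mt-Co1* had 21308, 17259 and 27452 normalized CPM in WT and 18868, 11227 and 14932 in *Mtm1* KO, which overlapped. *mt-Co2* had 87.3, 59.8 and 121 normalized CPM in WT and 135, 147 and 124 in *Mtm1* KO, higher without overlap, as were 17.4% of all genes, with a log2 difference of 0.62 ± 0.23 and an adjusted p of 0.103. With both left-out libraries added, *mt-Nd5* was at -0.81 with an adjusted p of 0.174, *mt-Nd2* at -0.78 with 0.129 and *mt-Co2* at 0.07 with 0.943.

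Scaling by library size alone raised the median log2 difference of all genes from 0.02 to 0.33. On that scale *mt-Nd5* was at -0.57 and *mt-Nd2* at -0.42, while *mt-Nd4* moved from -0.24 to 0.06 and *mt-Rnr2* from -0.08 to 0.22. A measure within the mitochondrial counts, chosen after its values were seen, does not depend on the scaling. Counts on *mt-Nd5* were 33.1% to 42.9% of those on *mt-Cytb* in WT and 23.2% to 28.3% in *Mtm1* KO, without overlap, and 27.01% to 48.1% in WT + TAM and 21.2% to 29.2% in *Mtm1* KO + TAM, with overlap. The left-out libraries had 19.6% (WT replicate 1) and 22.8% (*Mtm1* KO replicate 12).

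Between the tamoxifen groups *mt-Nd5* had 2497, 4426, 3666 and 3608 normalized CPM in WT + TAM and 1825, 2093, 1776 and 3073 in *Mtm1* KO + TAM. The highest KO + TAM library lay above the lowest WT + TAM library. The log2 difference was -0.69 ± 0.21 with an adjusted p of 0.0471. *mt-Nd2* had 4399, 4653, 5801 and 5733 normalized CPM in WT + TAM and 3402, 2877, 2663 and 4968 in *Mtm1* KO + TAM, with a log2 difference of -0.56 ± 0.20 and an adjusted p of 0.0795.

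Of the 22 members tested here edgeR's quasi-likelihood test called 0, with 6.72% of all genes called, and 4 had an unadjusted p under 0.05, all lower (*mt-Nd5*, *mt-Nd2*, *mt-Co1* and *mt-Tp*), as were 16.5% of all genes. DESeq2 called *mt-Nd5* and edgeR's exact test called 0 members, with 13.7% and 12.5% of all genes called. All 8 abundant members were below 0 on the log2 scale, from -0.69 for *mt-Nd5* to -0.18 for *mt-Nd4*, as were 51.3% of all genes. These 8 genes share long precursors and each library's mitochondrial share, so their signs are not independent of each other. Here scaling by library size alone raised the median of all genes to 0.27. On that scale the abundant members ranged from -0.42 for *mt-Nd5* to 0.09 for *mt-Nd4*. *mt-Co2* was called on it at 0.61 with an adjusted p of 0.00888, against 0.35 ± 0.16 with 0.165 in the main scaling.

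**Figure D4:**
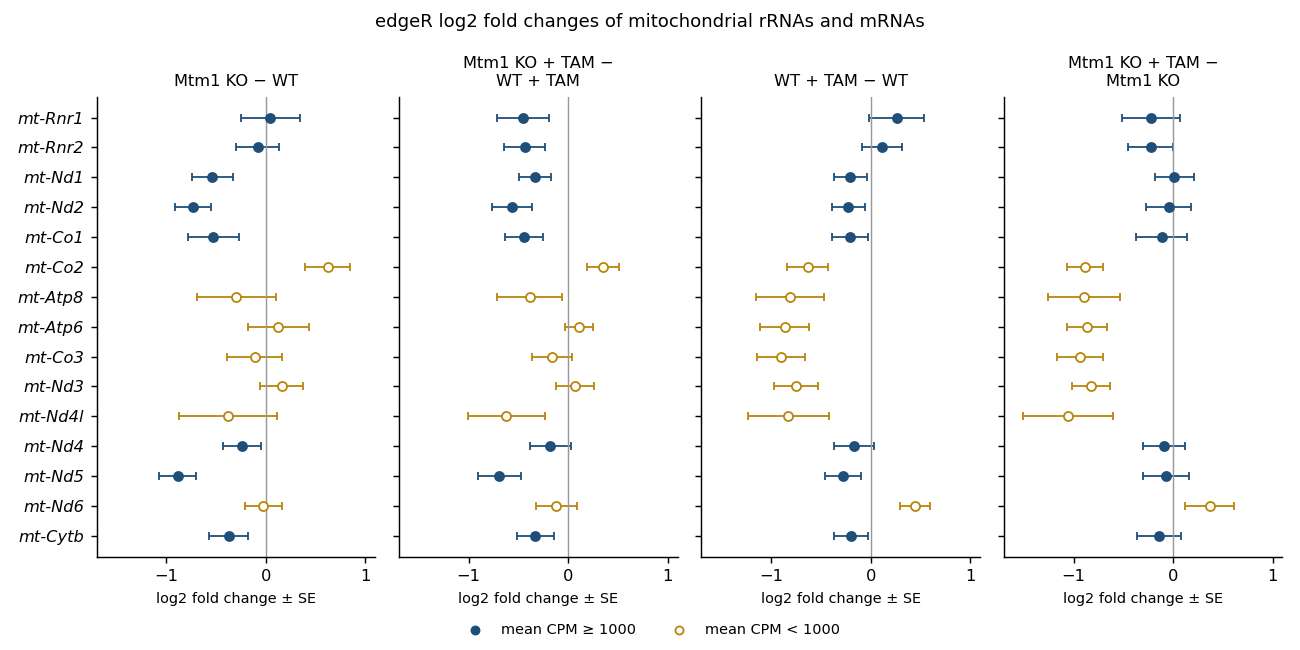
Log2 difference (points) with its SE (bars) of each mitochondrial mRNA and rRNA gene in the pairwise comparisons other than *Mtm1* KO + TAM against WT. *mt-Nd5* lies lowest of the abundant genes in *Mtm1* KO against WT at -0.89, and the 6 low mRNAs other than *mt-Nd6* lie between -1.06 and -0.82 in *Mtm1* KO + TAM against *Mtm1* KO.

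Tamoxifen in *Mtm1* KO mice went with lower values of the 6 low mRNAs and of nuclear copies of genes in both sets. None of these passed the threshold, and the abundant mitochondrial genes differed little. *mt-Co2* had 135, 147 and 124 normalized CPM in *Mtm1* KO and 95.3, 57.6, 59.7 and 82.8 in *Mtm1* KO + TAM. All treated libraries were below all untreated ones, with a log2 difference of -0.89 ± 0.18 and an adjusted p of 0.183 by edgeR's quasi-likelihood test. *mt-Co3*, of the same complex, had 81.8, 42.1 and 57.2 normalized CPM in *Mtm1* KO and 37.3, 26.5, 24.8 and 38.6 in *Mtm1* KO + TAM, without overlap, at -0.94 ± 0.23 with an adjusted p of 0.240.

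The other low mRNAs were at -0.87 ± 0.20 for *mt-Atp6*, -0.82 ± 0.19 for *mt-Nd3*, -0.89 ± 0.36 for *mt-Atp8* and -1.06 ± 0.45 for *mt-Nd4l*, with adjusted p from 0.208 to 0.615. *mt-Nd6* was at 0.37 ± 0.25. Without *Mtm1* KO replicate 9, *mt-Atp8* was at -0.21 and *mt-Nd4l* at -0.24. *mt-Atp8* had 11.6 normalized CPM in that library and 3.47 and 4.78 in the other two, against 2.86, 3.87, 3.09 and 4.56 in *Mtm1* KO + TAM. With the left-out *Mtm1* KO replicate 12 added, *mt-Co2* was at -0.93 with an adjusted p of 0.167, and the other 5 low mRNAs were at -0.84 to -0.56 with *mt-Nd3* the nearest to 0.

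The abundant genes ranged from -0.23 to 0.01 on the log2 scale, with SEs of 0.20 to 0.29. *mt-Nd5* was at -0.07 ± 0.23 and *mt-Co1* at -0.11 ± 0.26. Of the 22 members tested 0 were called by edgeR's quasi-likelihood test, which called 0% of all 15062 genes. An unadjusted p under 0.05 was found for 6 members, all lower, and for 4.48% of all genes in that direction. Of these 6, 4 were lower without overlap, as were 3.71% of all genes, and DESeq2 and edgeR's exact test each called *mt-Co2*, with backgrounds of 0.478% and 0.485%.

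All 14 nuclear copies in the table were below 0 in this comparison, as were 51.8% of all genes tested, with a median log2 difference of -0.83 against -0.01 over all genes. Of these 10 had an unadjusted p under 0.05, all lower, against 4.48% of all genes in that direction. *Gm28661*, the copy of *mt-Co2*, had 86.5, 83.9 and 82.3 normalized CPM in *Mtm1* KO and 57.8, 39.1, 39.6 and 49.2 in *Mtm1* KO + TAM, without overlap, at -0.87 ± 0.15 with an adjusted p of 0.118. edgeR's quasi-likelihood test called 0 copies, and DESeq2 and the exact test each called 1. The copies share stretches with mitochondrial genes of both sets, so their values are not independent of those genes or of each other. Copies of abundant genes were also lower, with *Gm13340* and *Gm29216* (of *mt-Co1*) at -0.93 and -0.79 and *Gm28439* (of *mt-Nd4*) at -0.89. *mt-Co1* itself was at -0.11 and *mt-Nd4* at -0.09.

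Tamoxifen in WT mice, a comparison that uses no library of the one above, gave values of similar size for the low mRNAs. *mt-Co3* had 62.1, 47.2 and 89.8 normalized CPM in WT and 25.6, 46.2, 31.7 and 39.0 in WT + TAM, all treated libraries below all untreated ones as for 6.33% of all genes, at -0.90 ± 0.24 with an adjusted p of 0.185. *mt-Atp6* was at -0.86 ± 0.24, *mt-Nd3* at -0.75 ± 0.22, *mt-Co2* at -0.63 ± 0.21, *mt-Atp8* at -0.81 ± 0.34 and *mt-Nd4l* at -0.83 ± 0.41. Against them *mt-Nd6* was at 0.44 ± 0.15, with an adjusted p of 0.324, and *mt-Tp* at 1.04 with 0.417. With WT replicate 1 added *mt-Co2* was at -1.21 with an adjusted p of 0.419 and *mt-Co3* at -1.03 with 0.195. The 5 fibroblast markers, such as collagen genes, moved with this comparison, at 4187 to 4389 CPM in WT and 2388 to 3733 CPM in WT + TAM, without overlap. In the KO mice they overlapped, at 3863 to 5615 CPM in *Mtm1* KO and 3906 to 4829 CPM in *Mtm1* KO + TAM. The part of these markers in either comparison was not tested.

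The abundant genes ranged from -0.27 for *mt-Nd5* to 0.26 for *mt-Rnr1*. Of 22 members tested edgeR's quasi-likelihood test called 0, with 0.131% of all genes called. At an unadjusted p under 0.05 there were 5 low mRNAs that were lower (5.98% of all genes) and 2 members that were higher (4.67%), *mt-Nd6* and *mt-Tp*. DESeq2 and the exact test called 0 members, with 1.47% and 1.22% of all genes called. All 13 nuclear copies tested were below 0, as were 50.5% of all genes, with a median of -0.76. *Gm28437*, the copy of *mt-Co3*, had 37.5, 27.7 and 49.95 normalized CPM in WT and 17.4, 22.9, 19.2 and 23.9 in WT + TAM, without overlap, at -0.89 ± 0.20 with an adjusted p of 0.0974. edgeR's quasi-likelihood test called 0 copies here, and DESeq2 and the exact test each called 1, *Gm28437*, with adjusted p of 0.00318 and 0.00524.

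Whether tamoxifen acted differently in the 2 genotypes was tested as an interaction in one fit of all 4 groups. edgeR's quasi-likelihood test called 0 members and 0% of all 15556 genes, 0 members had an unadjusted p under 0.05, as against 4.27% of all genes, and DESeq2 called 0 members and 0.0855% of all genes. The difference between the tamoxifen effects was -0.25 ± 0.29 for *mt-Co2*, -0.03 ± 0.37 for *mt-Co3*, 0.01 ± 0.34 for *mt-Atp6*, -0.07 ± 0.31 for *mt-Nd3* and 0.22 ± 0.31 for *mt-Nd5* on the log2 scale.

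**Figure D5:**
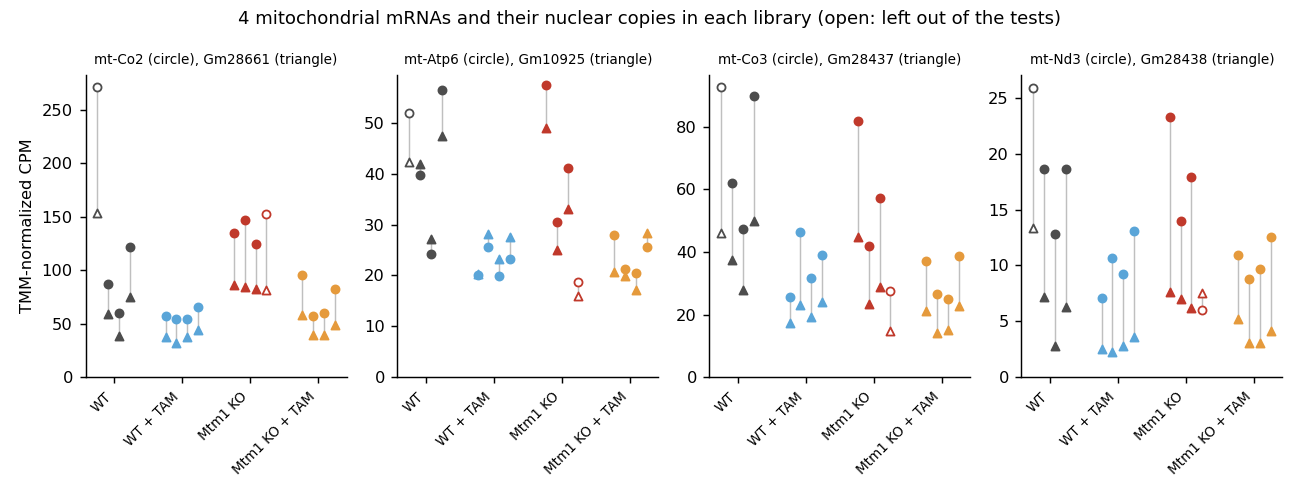
Normalized CPM (linear scale) of low mitochondrial mRNAs and of their nuclear copies in every library, by group. *mt-Co2* and *Gm28661* lie above the other groups in the 3 main *Mtm1* KO libraries, at 124 to 147 and 82.3 to 86.5 normalized CPM, and the left-out WT replicate 1 lies above these at 271 and 154.

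Treated KO mice were also set against untreated WT mice, a comparison that shares its libraries with those above. *mt-Nd5*, *mt-Co3* and *mt-Atp8* were called lower, 3 of 21 members tested, against 4.14% of all 14942 genes called lower and 7.70% called in either direction. *mt-Nd5* had 4063, 4104 and 4673 normalized CPM in WT and 1825, 2093, 1776 and 3073 in *Mtm1* KO + TAM, without overlap as for 16.4% of all genes, and fell by 0.97 ± 0.20 on the log2 scale with an adjusted p of 0.00903 by edgeR's quasi-likelihood test. *mt-Atp8* had 7.65, 7.20 and 9.95 normalized CPM in WT and 2.86, 3.87, 3.09 and 4.56 in *Mtm1* KO + TAM, without overlap, and fell by 1.20 ± 0.21 with an adjusted p of 0.00397. *mt-Co3* had 62.1, 47.2 and 89.8 in WT and 37.3, 26.5, 24.8 and 38.6 in *Mtm1* KO + TAM, also without overlap, and fell by 1.06 ± 0.22 with an adjusted p of 0.00846.

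DESeq2 and the exact test called these 3 genes and also *mt-Nd2*, *mt-Nd3* and *mt-Nd4l*, 6 members each, with backgrounds of 15.9% and 13.9%. Leaving out 1 library at a time, *mt-Nd5* kept its call in 1 of 7 fits (that without *Mtm1* KO + TAM replicate 16), *mt-Co3* in 2 and *mt-Atp8* in 4, with adjusted p up to 0.0394, 0.0345 and 0.0191. The log2 difference of *mt-Nd5* ranged from -1.17 to -0.87 in these fits. With all 16 libraries 0 members were called, and with scaling by library size alone, which raised the median of all genes to 0.28, 0 members were called. Of the 13 nuclear copies tested 4 were called lower, with log2 differences of -1.07 ± 0.22 for *Gm28437* (a copy of *mt-Co3*), -1.03 ± 0.22 for *Gm28439* (of *mt-Nd4*), -1.08 ± 0.18 for *Gm13340* (of *mt-Co1*) and -1.79 ± 0.38 for *Gm4076*, which shares stretches with *mt-Nd5*. Without 1 library at a time *Gm13340* kept its call in 6 of 7 fits, *Gm28437* and *Gm28439* in 2 each and *Gm4076* in 0, and with scaling by library size alone *Gm13340* was called and the other 3 were not.

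The nuclear genes that serve the mitochondrial genome were read from lists of genes in the same fits. *Tfam*, which packages mitochondrial DNA and starts its transcription, had 45.5, 49.9 and 45.5 normalized CPM in WT and 97.6, 90.1, 91.2 and 93.7 in WT + TAM. The groups did not overlap, and *Tfam* was called higher by 0.99 ± 0.10 with an adjusted p of 0.00295. It was the 1 of 10 transcription genes called, where 0.131% of all genes were called. In *Mtm1* KO it had 47.8, 36.1 and 37.9 and in *Mtm1* KO + TAM 72.6, 68.7, 49.9995 and 62.0 normalized CPM, without overlap, at 0.63 ± 0.16 with an adjusted p of 0.263, and the interaction was -0.34 ± 0.19. *Tfam* kept its call in WT + TAM in 1 of 7 fits without 1 library, with adjusted p from 0.00432 to 0.0260 and log2 differences from 0.96 to 1.03.

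*Polrmt*, the mitochondrial RNA polymerase, was called in no comparison, with log2 differences from -0.43 to 0.18 in the 5 pairwise comparisons. *Lrpprc*, which stabilizes mitochondrial mRNAs, was called in none either, at -0.21 to -0.03. *Lactb2*, an RNase of mitochondria, was the only one called of 20 genes of RNA processing and stability, where 7.70% of all genes were called, with 23.5, 24.8 and 24.2 normalized CPM in WT and 15.4, 15.6, 16.1 and 16.6 in *Mtm1* KO + TAM. It fell by 0.60 ± 0.11 with an adjusted p of 0.00388, and kept its call in 1 of 7 fits without 1 library, with adjusted p up to 0.0182. With scaling by library size alone it was at -0.32 with an adjusted p of 0.0874, and with all 16 libraries at -0.44 with 0.200. In *Mtm1* KO it had 21.7, 11.6 and 14.4 normalized CPM, below WT without overlap, at -0.58 ± 0.21 with an adjusted p of 0.102.

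Nuclear genes listed for the same complexes were read in the same way, with *Ndufa4* listed under both complex I and complex IV. By edgeR's quasi-likelihood test 0 were called in any of the 5 pairwise comparisons, of 38 genes of complex I, 9 of complex III, 15 of complex IV and 17 of complex V. In *Mtm1* KO against WT an unadjusted p under 0.05 was found for 5, 1, 3 and 3 of them and for 30.1% of all genes. DESeq2 called 3 of complex I and 1 of complex V and 11.4% of all genes, while the exact test called 0 of these listed genes and 9.82% of all genes. Their median log2 differences in that comparison were 0.002 for complex I, -0.02 for complex III, 0.03 for complex IV and -0.05 for complex V, against 0.02 over all genes and -0.45 over the 8 abundant mitochondrial genes.

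Of 14 genes used as markers of mitochondrial mass, such as *Cs* for citrate synthase, and of 15 genes of mitochondrial DNA maintenance, 0 were called in any pairwise comparison by edgeR's quasi-likelihood test. In *Mtm1* KO against WT 5 of the mass markers had an unadjusted p under 0.05, 4 of them lower, and DESeq2 called 4 and the exact test 2. Over all genes these shares were 30.1% at that p, 11.4% for DESeq2 and 9.82% for the exact test. Of the maintenance genes 6 had an unadjusted p under 0.05 in that comparison, against the same 30.1% of all genes, and DESeq2 and the exact test called 0. The mass markers summed to 8601 to 11139 CPM in WT, 9353 to 10327 CPM in WT + TAM, 8474 to 10286 CPM in *Mtm1* KO and 8916 to 10639 CPM in *Mtm1* KO + TAM, and all groups overlapped. These sums were scaled to library size alone, without TMM. That scaling raised the median log2 difference of all genes in *Mtm1* KO against WT from 0.02 to 0.33. The overlap of the sums therefore does not show that mitochondrial mass was unchanged.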

How the data were processed

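The deposited gene table holds raw read counts, which per the labels and the study's methods the authors made by aligning RNA-seq reads of total RNA (Illumina TruSeq RNA Sample Prep) to GRCm38 with STAR in 2 passes and counting with HTSeq. A second deposited table holds RPKM, which the authors computed from such counts with gene lengths that match the annotation. The submitters' processing notes name bcl2fastq 2.17, STAR 2.5.0c and Cufflinks 2.2.1. The counting mode, its treatment of reads with several matches, its strand setting and its annotation were named in none of the sources read, and decide how reads are shared between mitochondrial genes and their nuclear copies. A read that matches both places may have been dropped or given to either, so counts of genes with a copy may not follow the level of their RNA.

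Groups were taken from the labels, so fits of all 16 libraries count WT replicate 1 as WT although its *Mtm1* counts go against this. Each pair of groups was fitted with edgeR 4.0.16 in R 4.3.3 on the whole count table (TMM scaling, filterByExpr with a minimum count of 10 and a minimum total of 15, quasi-likelihood test, Benjamini-Hochberg adjustment over all genes, call at an adjusted p of at most 0.01), on 14 of 16 libraries, without WT replicate 1 and *Mtm1* KO replicate 12. The interaction came from 1 fit of all groups. SEs are the log2 difference divided by the square root of F. Alternatives used DESeq2 1.42.0, edgeR's exact test, limma 3.58.1 on log2(RPKM + 0.1) and log2(RPKM + 1), other scalings, filters and sets of libraries. Normalized CPM and markers' sums are over 16 libraries' TMM factors and raw CPM respectively. Shares of counts were described without a test. All count columns were used (0 left out). The scripts were tested on simulated counts.

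Sequences and positions are from GENCODE vM21 (GRCm38), matched by gene ID for 37 of 37 genes. Stretches of 50 bases were searched in nuclear transcripts, and full alignments were made with blastn 2.17.0. No genome sequence was used. All mRNA and rRNA members were named, transfer RNAs only where they had the highest counts or an unadjusted p under 0.05 (*mt-Tp*), and of the other lists the called genes with *Tfam*, *Polrmt* and *Lrpprc*. The genes and lists were chosen with earlier results of these data known.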

Additional observations from a re-analysis of the deposited data

Results flagged for a closer look

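*mt-Nd4l*, a complex I subunit gene with few counts, stood apart in 1 library of *Mtm1* KO. Replicate 9 had 3.60 normalized CPM while the other 3 KO libraries, replicate 12 included, had 0.871 to 1.18. The gap to the nearest library was 0.887 of the whole range, above Dixon's critical value for 4 samples. The 15 mRNA and rRNA genes and the mitochondrial share were tested in 4 groups each, 64 groups in all, and chance alone flags about 1 group in 20.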

How the results depend on the processing

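The counts below are of the 8 abundant genes called at an adjusted p of at most 0.01. In *Mtm1* KO against WT the count was 0 and became 2 with DESeq2, with edgeR's exact test and at a threshold of 0.05, and 1 without a filter on low counts. Leaving out 1 library at a time gave 0 to 1, the latter without *Mtm1* KO replicate 9. In *Mtm1* KO + TAM against WT + TAM it was 0 and became 1 with DESeq2 and at 0.05. In *Mtm1* KO + TAM against WT it was 1 and became 2 with DESeq2, the exact test and at 0.05, and 0 with limma at either pseudocount, with scaling by library size alone and with all 16 libraries, and 0 to 2 without 1 library. The other 103 counts were equal to their main value, which was 0 in every comparison but *Mtm1* KO + TAM against WT. A count that stays at 0 does not show that the values behind it are stable. All 49 alternatives for the share of counts moved its difference between groups by less than 1 SD between libraries. That SD was larger than the main difference in each comparison, such as 1.14 against -0.60 percentage points for *Mtm1* KO minus WT. A difference could therefore be lost or change sign within it, so this does not show that the differences are stable. A change of sign was counted where the main difference was called or larger than its SE. In the order limma with a pseudocount of 0.1, limma with 1 and library size only, *mt-Nd4* in *Mtm1* KO against WT turned to 0.10, 0.10 and 0.064, *Tfam* there to 0.11, 0.11 and 0.13, and *Polrmt* there to 0.12, 0.097 and 0.11. In the same order *Polrmt* in *Mtm1* KO + TAM against WT turned to 0.023, 0.020 and 0.025, *Lrpprc* there to 0.065, 0.060 and 0.056, and *Lrpprc* in *Mtm1* KO + TAM against WT + TAM to 0.087, 0.081 and 0.089. None of these RPKM and library size settings uses TMM scaling. *mt-Co2* in *Mtm1* KO + TAM against WT turned to 0.028 and 0.027 with limma and ranged from -0.50 to 0.0040 without 1 library (the latter without WT replicate 4), *mt-Atp8* in *Mtm1* KO + TAM against WT + TAM to 0.0010 with limma at 0.1 and ranged from -0.58 to 0.030 without 1 library (the latter without WT + TAM replicate 6), and *mt-Co1* in WT + TAM against WT to 0.036 with all 16 libraries. No paired analysis was possible because the replicate numbers run from 1 to 16 and are not shared between groups. Genes with few counts, such as *mt-Atp8*, *mt-Nd4l* and the transfer RNAs, are limited by depth.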
